A study of Mus musculus with 2 samples.

Results

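The unfolded protein response and the folding machinery of the endoplasmic reticulum (ER) were followed through 41 named genes in islet cells of Tg7 and Wild-type mice. All 41 symbols were found among the 31054 features of both matrices. By role they fell into 13 chaperones and co-chaperones, 6 genes of disulfide formation, 9 genes of degradation, 6 genes grouped as sensors and 7 genes of the Atf4-Ddit3 branch. The sensor group holds Ern1, Eif2ak3, Atf6 and Atf6b and also Xbp1 and Wfs1, which are not sensors themselves. Tg7 mice overexpress miR-7a2, a microRNA, from a transgene in their β-cells, and Wild-type mice did not carry that transgene. Islets of both groups came from 12-week-old C57Bl6 males, and 1 droplet library was made per group with the single-cell chemistry of 10x Genomics. In both groups, per the study's methods, β-cells carried a tdTomato reporter, released at the Rosa26 locus by a Cre recombinase under the rat Ins2 promoter. The sources used here do not give the number of mice behind each library. With 1 library per group no test between the groups was possible, so every interval below is a 95% interval that covers only the counting of molecules, and a difference between the libraries cannot be told apart from a difference between the mice or the runs behind them.

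Molecules were counted as UMIs (unique molecular identifiers, so that each captured RNA counts once). The libraries held 29931777 UMIs in Tg7 and 30829078 in Wild-type, and 992 Tg7 and 744 Wild-type cells passed the filters, with 0 barcodes in common. A cell was called by the hormone that led its UMIs, with at least 5% of them and at least 4 times the next hormone, which makes each class a range of hormone share and not a proven cell type. This gave 595 Tg7 and 493 Wild-type insulin cells, 178 and 149 Gcg cells, 13 and 19 Sst cells, and 19 and 9 Ppy cells. All 9 insulin-cell markers read, Mafa, Slc2a2 and Pdx1 among them, had UMIs in the insulin cells of both libraries. Detection alone does not set the class apart, since 8 of them had UMIs in Tg7 Gcg cells and 9 in Wild-type Gcg cells. Their sum, Ins1 and Ins2 included, was 7491.5 per 10000 UMIs of non-hormone genes in Tg7 insulin cells and 20521 in Wild-type insulin cells. In Gcg cells it was 108 in Tg7 and 61.5 in Wild-type. The class was itself set by Ins1 and Ins2, so this gap follows from the rule and is no separate check of the class. A further 127 Tg7 and 30 Wild-type cells were left aside as mixed, and 60 Tg7 and 44 Wild-type cells had no hormone at 5%. Levels are UMIs of a gene per 10000 UMIs of all genes except the 7 hormone genes, because these hormones took 43.5% of UMIs in Tg7 insulin cells and 67.3% in Wild-type insulin cells. On this scale the median log2 ratio of 11441 genes in insulin cells was -0.04. Scaled to all UMIs every insulin-cell ratio becomes 1.73 times as large and that median is 0.74, so whether a ratio near 1 lies above or below it depends on the scale, and both are given where it matters.

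The ER folds and oxidises newly made secretory proteins, and a β-cell, which makes proinsulin in bulk, leans on it heavily. When unfolded protein builds up, the chaperone Hspa5 leaves the membrane sensors. Ern1 then splices the Xbp1 message, Atf6 is cut to release a transcription factor, and Eif2ak3 phosphorylates a translation factor and so favours the making of Atf4, which drives Ddit3 and genes of amino acid supply. Xbp1 and Atf6 raise chaperones, oxidases and the genes that return faulty proteins to the cytosol for degradation, in part through a promoter element known as the ER stress response element (ERSE).

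The ERSE is printed here because it marks, in the DNA, which members share this textbook element. RefSeq promoter windows of build GRCm38.p6, from 250 bases before to 50 bases after the start site, were matched to 37 of the 41 members, 2 of them (Ero1l and Ero1lb) by their newer symbols Ero1a and Ero1b. The members outside this count are Hyou1, Manf, Derl1 and Atf6. The letters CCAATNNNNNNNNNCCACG, searched on both strands, were found in 10 of the 37 members (27.0%) and in 37 of all 27025 genes with windows (0.137%). The related ERSE-II, ATTGGNCCACG, was found in 2 members (5.41%) and in 0.0444% of all genes. The 10 members with an ERSE were 6 chaperones or co-chaperones, 2 genes of disulfide formation and 2 of degradation, and 0 members of the sensor and Atf4-Ddit3 groups had it. Each site is shown with 6 bases on either side, read so that the motif runs forward, with the fixed letters of the motif in capitals.
Hspa5, chr2:34772019-34772049: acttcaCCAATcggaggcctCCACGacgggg
Hsp90b1, upstream copy, chr10:86705632-86705662: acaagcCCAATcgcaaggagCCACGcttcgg
Hsp90b1, second copy, chr10:86705527-86705557: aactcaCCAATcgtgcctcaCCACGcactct
Calr, chr8:84847069-84847099: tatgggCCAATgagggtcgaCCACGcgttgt
Canx, chr11:50325794-50325824: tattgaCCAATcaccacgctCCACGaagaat
Dnajc3, chr14:118937821-118937851: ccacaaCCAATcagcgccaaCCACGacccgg
Creld2, chr15:88819514-88819544: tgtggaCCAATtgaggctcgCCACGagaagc
Pdia6, chr12:17266485-17266515: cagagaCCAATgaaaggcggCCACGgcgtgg
Ero1lb, chr13:12565676-12565706: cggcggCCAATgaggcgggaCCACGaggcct
Syvn1, chr19:6046526-6046556: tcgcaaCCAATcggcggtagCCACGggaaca
Derl3, chr10:75893236-75893266: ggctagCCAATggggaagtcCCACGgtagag
Dnajb11 (ERSE-II), chr16:22857846-22857868: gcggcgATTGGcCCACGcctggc
Herpud1 (ERSE-II), chr8:94386371-94386393: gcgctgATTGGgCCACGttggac

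In the direction of the gene the motif lay at positions -65 to -47 from the start site of Hspa5 and at -201 to -183 from that of Ero1lb. It lay on the strand opposite to the gene in Calr, Creld2, Ero1lb, Derl3 and the second copy of Hsp90b1. The core of the unfolded protein response element, TGACGTGG, was found in 0 of the 37 members and 0.714% of all genes, and the C/EBP-ATF composite element TTGCATCA, which Atf4 is known to bind with a partner, in Herpud1 and Chac1 and in 1.03% of all genes. A match of letters is a description of the window and not a bound site. Only exact letters inside the window were searched, so a missing match does not show that a gene lacks the element.

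In insulin cells the members were, as a set, somewhat lower in Tg7 than in Wild-type per non-hormone UMI, with one member far below the rest. Of the 41 members, all with at least 50 UMIs, 33 had a ratio of Tg7 over Wild-type below 1 (80.5%, against 53.7% of 11441 genes) and the median log2 ratio was -0.39. Scaled to all UMIs 9 members were below 1 (22.0%, against 8.33% of all genes). At 2-fold or more, 0 members were higher (7.30% of all genes) and 4 were lower (5.31% of all genes), namely Ero1lb, Ddit3, Atf6b and Sdf2l1. Atf6b, at a log2 ratio of -1.05, and Sdf2l1, at -1.03, lay just past that line and Hyou1, at -0.97, just short of it. Scaled to all UMIs, Ero1lb alone stayed at least 2-fold lower (1.51% of all genes). On that scale 4 members were at least 2-fold higher, Dnajc3, Fkbp11, P4hb and Edem2, a smaller share than the 29.1% of all genes. The interval of the ratio lay below 1 for 30 members, above 1 for 7 and held 1 for 4. This count was not made over all genes, and intervals that cover only counting are narrow where UMIs are many.

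**Figure D1:**
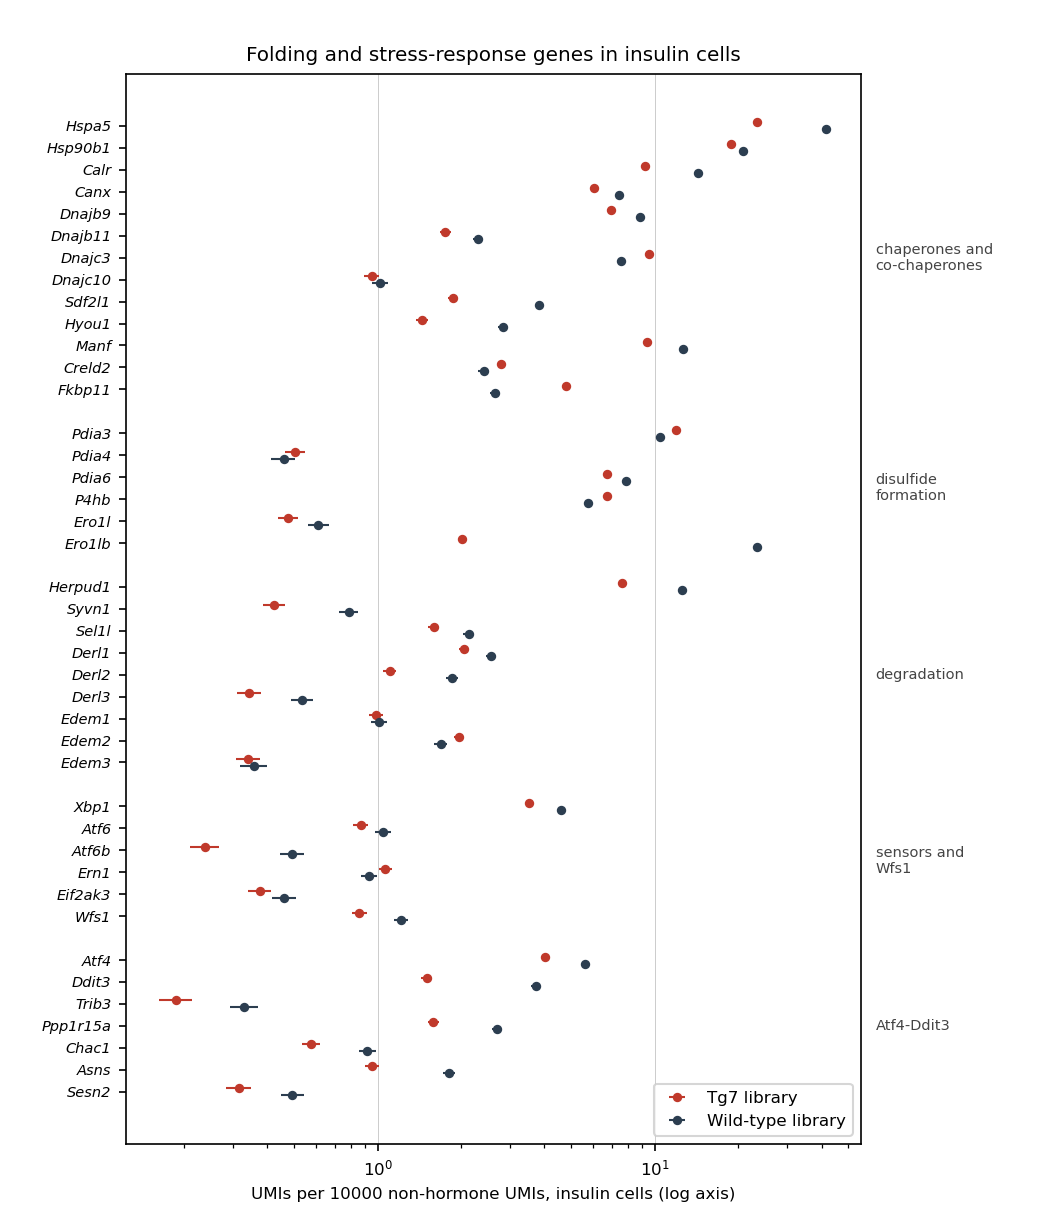
Level of each of the 41 genes in insulin cells, as UMIs per 10000 non-hormone UMIs on a log axis, in the Tg7 library (595 cells) and the Wild-type library (493 cells), with 95% Poisson intervals that cover counting only. The pair of points for Ero1lb, 2.02 in Tg7 and 23.5 in Wild-type, is the widest apart, and Fkbp11, 4.78 in Tg7 and 2.66 in Wild-type, is the widest pair with Tg7 on the right.

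The chaperones summed to 96.9 per 10000 non-hormone UMIs in Tg7 insulin cells and 128 in Wild-type insulin cells, and their median log2 ratio was -0.34 (0.44 scaled to all UMIs). Hspa5, the ER Hsp70 that also holds the sensors silent, had 27288 UMIs in Tg7, a level of 23.3, against 35490 UMIs in Wild-type, a level of 41.6. Its ratio was 0.560 (0.551 to 0.569), and with all UMIs 0.966. Hyou1, which exchanges the nucleotide of Hspa5, was at 1.44 in Tg7 and 2.83 in Wild-type, a ratio of 0.509 (0.478 to 0.542). This pair was thus 1.79-fold and 1.96-fold lower per non-hormone UMI, and closer to 1 scaled to all UMIs (0.879 for Hyou1). Sdf2l1, which works with the J-domain protein Dnajb11, was at 1.87 in Tg7 and 3.83 in Wild-type, a ratio of 0.488 (0.462 to 0.515). Dnajb11 itself was at 1.76 in Tg7 and 2.30 in Wild-type, a ratio of 0.763, so the partners did not share one ratio.

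The other co-chaperones of Hspa5 lay on both sides of 1. Dnajb9, whose product quiets Ern1, was at 6.96 in Tg7 and 8.82 in Wild-type (ratio 0.789). Dnajc3, a co-chaperone also known to restrain Eif2ak3, was at 9.53 in Tg7 and 7.53 in Wild-type, a ratio of 1.27 (1.23 to 1.30). Dnajc10, which reduces wrong disulfides, was at 0.951 in Tg7 and 1.02 in Wild-type, and the interval of its ratio, 0.852 to 1.02, held 1. Of these only Dnajc3 was above 1 on both scales.

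Among the remaining chaperones the lectins and Hsp90b1 were lower and a pair of less studied genes higher. Hsp90b1, the ER form of Hsp90, was at 18.9 in Tg7 and 20.8 in Wild-type, a ratio of 0.908 (0.891 to 0.927). Calr, the calcium-binding lectin that retains unfolded glycoproteins, was at 9.22 in Tg7 and 14.4 in Wild-type (ratio 0.641), and its membrane-bound counterpart Canx at 6.02 in Tg7 and 7.45 in Wild-type (ratio 0.808). Manf, an ER-resident trophic factor that binds Hspa5, was at 9.35 in Tg7 and 12.6 in Wild-type (ratio 0.742). These 4 ratios were all above 1 scaled to all UMIs, between 1.11 and 1.57. Creld2, a stress-induced ER protein, was at 2.79 in Tg7 and 2.42 in Wild-type, a ratio of 1.16 (1.09 to 1.22). Fkbp11, a prolyl isomerase of secretory cells, was at 4.78 in Tg7 and 2.66 in Wild-type, and its ratio of 1.80 (1.71 to 1.89) was the highest of the 41.

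Disulfide formation held both the lowest ratio of all members and mostly small differences otherwise. Ero1lb, the ER oxidase that is most abundant in the pancreas and hands oxidising power to the disulfide isomerases that fold proinsulin, had 2368 UMIs in 595 Tg7 insulin cells against 19994 UMIs in 493 Wild-type insulin cells. These are 3.98 UMIs per cell in Tg7 and 40.6 in Wild-type. The level was 11.6-fold lower in Tg7 (11.1 to 12.1), at a ratio of 0.0863, and with all UMIs the ratio was 0.149. Ero1l, the form made in most tissues, was at 0.476 in Tg7 and 0.611 in Wild-type, a ratio of 0.779 (0.690 to 0.879). The gap in Ero1lb was not shared by its paralogue.

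The isomerases that Ero1 enzymes recharge lay close to 1, on both sides of it. Pdia3, which works with Calr and Canx, was at 11.9 in Tg7 and 10.5 in Wild-type, a ratio of 1.14 (1.11 to 1.17). P4hb, the founding disulfide isomerase, was at 6.71 in Tg7 and 5.76 in Wild-type (ratio 1.17), and Pdia6 at 6.72 in Tg7 and 7.91 in Wild-type (ratio 0.850). Pdia4 was at 0.505 in Tg7 and 0.457 in Wild-type, and the interval of its ratio, 0.970 to 1.26, held 1. The summed level of the 6 genes was 28.3 in Tg7 and 48.7 in Wild-type, a gap set by Ero1lb, since the median log2 ratio of the group was -0.05.

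Degradation genes were lower by less than 2-fold or near 1. Their summed level was 16.4 in Tg7 and 23.5 in Wild-type, with 8 of 9 ratios below 1 and a median log2 ratio of -0.42 (0.37 scaled to all UMIs). Syvn1, the ubiquitin ligase of the export channel, had the lowest ratio of the group, with 0.423 in Tg7 and 0.786 in Wild-type (0.538, from 0.478 to 0.605). Its adaptor Sel1l was at 1.59 in Tg7 and 2.13 in Wild-type (ratio 0.748). Herpud1, which holds the complex together and carries an ERSE-II, was at 7.63 in Tg7 and 12.6 in Wild-type (ratio 0.607).

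The derlins, membrane proteins of the same channel, followed in the order Derl2, Derl3, Derl1. Derl2 was at 1.11 in Tg7 and 1.86 in Wild-type (ratio 0.595), and Derl3 at 0.343 in Tg7 and 0.535 in Wild-type (ratio 0.642, from 0.560 to 0.736). Derl1 was at 2.06 in Tg7 and 2.57 in Wild-type (ratio 0.800). The intervals of Derl2 and Derl3 overlap, and that of Derl1, 0.755 to 0.848, lies above both. The 3 Edem genes, which act on misfolded glycoproteins before their export, stood apart from the channel. Edem2 was at 1.97 in Tg7 and 1.69 in Wild-type, a ratio of 1.17 (1.09 to 1.25). Edem1 was at 0.988 in Tg7 and 1.01 in Wild-type and Edem3 at 0.341 in Tg7 and 0.358 in Wild-type, and the intervals of both ratios held 1.

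The sensor group, Xbp1 and Wfs1 included, summed to 6.93 in Tg7 and 8.74 in Wild-type, and 5 of 6 ratios were below 1. Atf6b, the relative of Atf6, counted 278 UMIs in Tg7 against 419 in Wild-type, a level of 0.237 against 0.491 and a ratio of 0.483 (0.414 to 0.564). Wfs1, an ER membrane protein whose loss causes Wolfram syndrome in humans, was at 0.859 in Tg7 and 1.22 in Wild-type (ratio 0.707). Xbp1 was at 3.53 in Tg7 and 4.60 in Wild-type (ratio 0.767), and counts per gene do not separate its spliced form. Atf6 was at 0.869 in Tg7 and 1.04 in Wild-type (ratio 0.832) and Eif2ak3 at 0.376 in Tg7 and 0.459 in Wild-type (ratio 0.820). Ern1 was the sensor above 1, at 1.07 in Tg7 and 0.931 in Wild-type (ratio 1.14, from 1.05 to 1.25).

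All 7 genes of the Atf4-Ddit3 branch were lower per non-hormone UMI, with a summed level of 9.14 in Tg7 and 15.6 in Wild-type and a median log2 ratio of -0.76, the lowest of the 5 groups. Scaled to all UMIs that median was 0.02, while the median over all genes was 0.74 on the same scale. Ddit3, the transcription factor tied to death under prolonged stress, counted 1760 UMIs in Tg7 against 3169 in Wild-type, a level of 1.503 against 3.72. Its ratio was 0.404 (0.381 to 0.429), and 0.698 with all UMIs. Atf4 itself, which is set largely at translation, was at 4.01 in Tg7 and 5.60 in Wild-type (ratio 0.717). The message of Ddit3 was thus further apart between the libraries than that of Atf4.

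The targets lay between them. Asns, which makes asparagine, was at 0.957 in Tg7 and 1.81 in Wild-type (ratio 0.529). Trib3, a pseudokinase induced by Ddit3, was at 0.187 in Tg7 and 0.330 in Wild-type (ratio 0.568, from 0.473 to 0.680). Ppp1r15a, the phosphatase subunit that restores translation, was at 1.59 in Tg7 and 2.70 in Wild-type (ratio 0.589). These ratios sit close together and their intervals overlap. Chac1, which breaks down glutathione, was at 0.574 in Tg7 and 0.917 in Wild-type (ratio 0.626), and Sesn2, a sensor of amino acid supply, at 0.316 in Tg7 and 0.493 in Wild-type (ratio 0.642).

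A list of 13 immediate early genes, which respond to dissociation of tissue, was also lower in Tg7 insulin cells. Their summed level was 68.8 in Tg7 insulin cells and 118 in Wild-type insulin cells, and the median log2 ratio was -0.86. At 2-fold or more 6 of 13 were lower (5.31% of all genes) and 0 were higher (7.30%). Atf3 is on this list and also on the list of further targets of Atf4 below. The ratio was 0.129 for Nr4a1, 0.357 for Fosb and 0.389 for Zfp36. In Gcg cells the same list summed to 96.9 in Tg7 and 118 in Wild-type. There 0 of 12 measured genes passed 2-fold and the median log2 ratio was -0.21. The mitochondrial share of UMIs had a median of 4.51% in Tg7 insulin cells and 3.69% in Wild-type insulin cells. The part of either in the lower Atf4-Ddit3 levels was not tested. Enzyme genes of acinar cells, which carry a large ER, summed to 0.127 per 10000 in Tg7 and 0.117 in Wild-type, with Prss1 and Amy2a2 at 0 in both. Markers of other cells did differ in insulin cells, with Gcg-cell markers summing to 133 in Tg7 and 41.0 in Wild-type, Ppy-cell markers to 92.9 and 19.3, duct markers to 6.50 and 2.50 (Cftr at 0 in both) and macrophage markers to 0.344 and 0.789. Their part in the members' ratios was not tested.

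**Figure D2:**
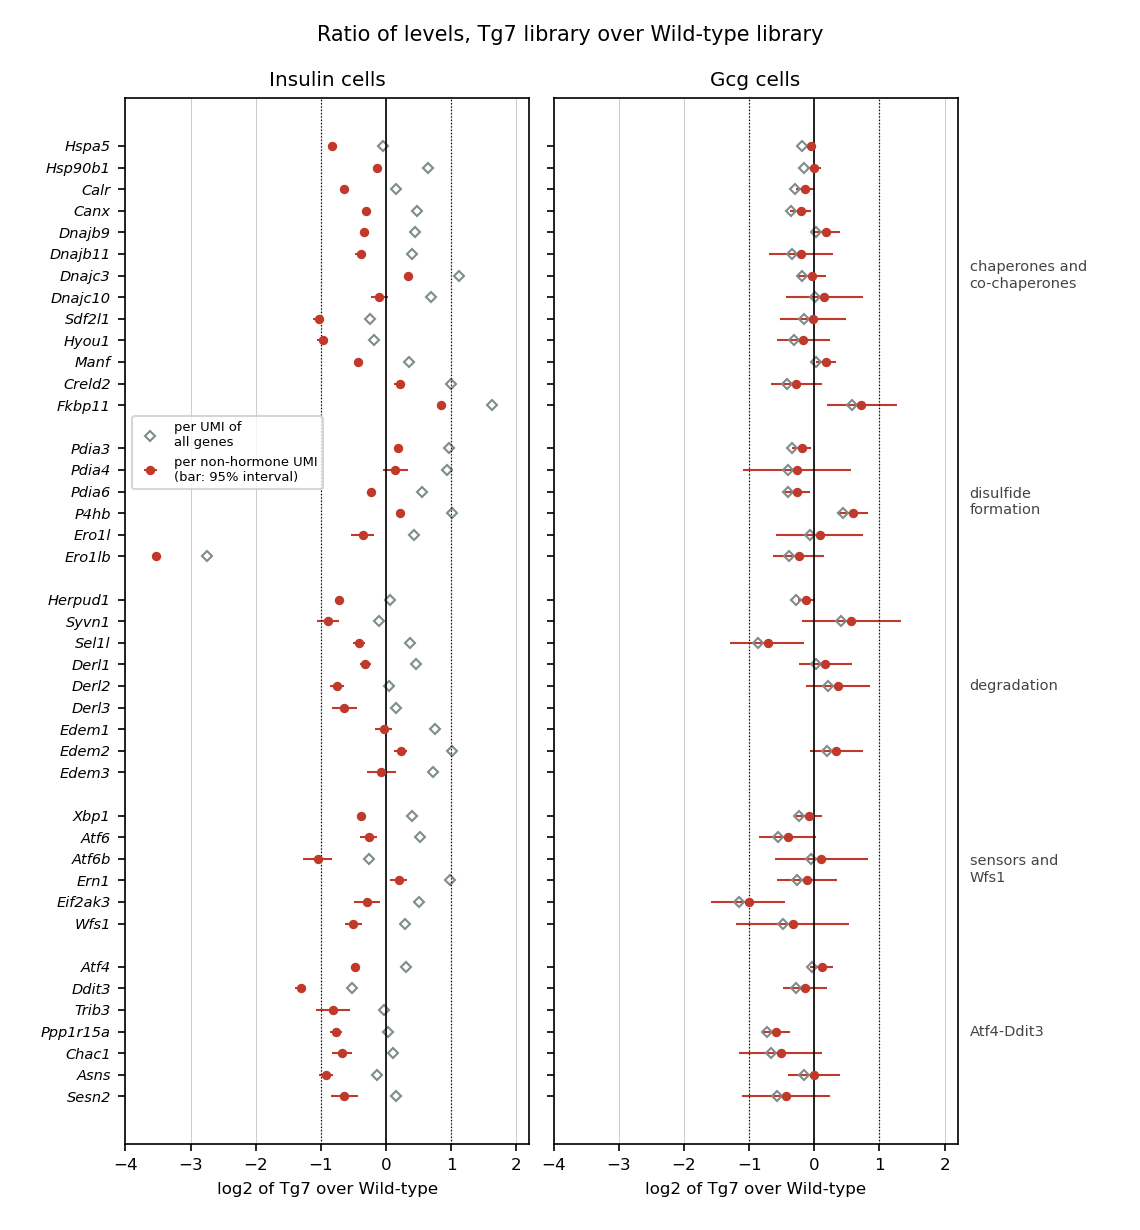
Log2 of the ratio of Tg7 over Wild-type for each member with at least 50 UMIs, in insulin cells (left) and Gcg cells (right), per non-hormone UMI with 95% counting intervals (red dots) and per UMI of all genes (grey diamonds), with dotted lines at 2-fold. In insulin cells every diamond lies 0.79 to the right of its dot, and in Gcg cells 27 of 37 intervals cross 0.

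The other genes of the pathway, taken from lists that leave the members out, fell apart by branch in insulin cells. The median log2 ratio of 28 measured further targets of Atf4 was -0.69, and 10 of them were at least 2-fold lower (5.31% of all genes) and 1 at least 2-fold higher (7.30%). In Gcg cells 0 of 18 passed 2-fold and the median was 0.01. Nupr1, a stress-induced chromatin protein, was 42.8-fold lower in Tg7 (36.5 to 50.4), with 160 UMIs there against 4984 in Wild-type. Atf5, a relative of Atf4, counted 1306 UMIs in Tg7 against 3515 (ratio 0.271), and Gars, a tRNA synthetase, 716 against 1518 (ratio 0.344). The 1 gene above 1 was Bcat1, a transaminase of branched-chain amino acids, with 259 UMIs in Tg7 against 2 in Wild-type, a ratio of 94.3 with an interval from 25.8 to 783. It reached 50 UMIs only through Tg7, where it was high.

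Among 34 other ER folding genes the median log2 ratio was 0.32, with 2 at least 2-fold higher (7.30% of all genes) and 0 lower (5.31%). Prdx4, an ER peroxiredoxin that can oxidise disulfide isomerases without Ero1 enzymes, counted 1840 UMIs in Tg7 against 238 in Wild-type, a ratio of 5.63 (4.92 to 6.47). Clgn, a Canx-like chaperone, counted 52 UMIs in Tg7 against 2 in Wild-type, a ratio of 18.9 (4.99 to 160.5), and reached the minimum of 50 only through Tg7. In ER oxidation, then, Ero1lb was lower and Prdx4 higher in Tg7 on both scales. Of 27 other degradation genes Erlec1, an ER lectin, was at least 2-fold higher (ratio 2.08, from 1.95 to 2.21) and 0 were lower. Of 21 other transducers Nupr1, which is on both lists, and Creb3l1 were lower and Creb3l3 higher, the last on 50 UMIs in Tg7 against 5 in Wild-type and so measured only through Tg7. Creb3l1, a membrane-bound transcription factor of the Atf6 kind, was 5.24-fold lower (4.45 to 6.21), with 183 UMIs in Tg7 against 699 in Wild-type. Of 12 cytosolic heat shock genes only Hspa1b passed 2-fold (ratio 0.476), a gene whose reads may be shared with its near-identical neighbour Hspa1a.

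Ero1lb was lower over the whole spread of insulin cells. All Tg7 insulin cells (100%) were below the Wild-type median of Ero1lb, and 99.7% were below its Wild-type 10th percentile. The median cell had 1.80 per 10000 in Tg7 and 23.0 in Wild-type, and the 90th percentile of Tg7 cells, 3.76, was under the 10th percentile of Wild-type cells, 10.6. For Ddit3 90.3% of Tg7 cells lay below the Wild-type median, for Hspa5 89.7%, for Calr 88.9%, for Hyou1 87.4% and for Herpud1 86.4%. For Fkbp11 that share was 23.7% and for Dnajc3 32.9%. Members with few UMIs cannot be read in this way. The median cell was at 0 in both libraries for Derl3, Edem3, Eif2ak3 and Trib3, and the highest 10% of Tg7 cells held 63.1% of the summed level of Trib3, 59.5% of that of Derl3 and 58.8% of that of Atf6b, against 25.8% for Ero1lb. Cells of 1 library are not replicates, so these shares describe the libraries.

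**Figure D3:**
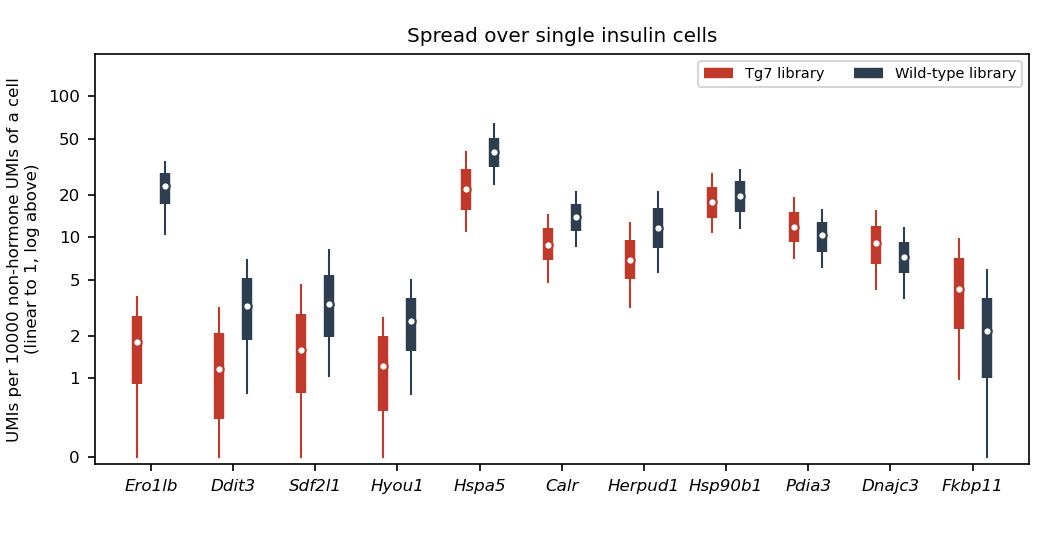
Spread over single insulin cells for 11 members: the white dot is the median cell, the thick bar runs from the 25th to the 75th percentile and the thin line from the 10th to the 90th, on an axis that is linear to 1 and logarithmic above. Only for Ero1lb do the thin lines of Tg7 and Wild-type not meet, ending at 3.76 in Tg7 and starting at 10.6 in Wild-type.

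Shares of cells with a UMI were compared after each cell was thinned to 2000 non-hormone UMIs, which left out 13 Tg7 and 4 Wild-type insulin cells. Ero1lb was then seen in 33.2% of Tg7 insulin cells (29.3 to 37.2) and 95.3% of Wild-type insulin cells, and in 10.2% of Tg7 and 15.0% of Wild-type Gcg cells. Without thinning the shares in insulin cells were 86.9% in Tg7 and 99.8% in Wild-type. After thinning, the share with Sdf2l1 was 30.9% in Tg7 against 52.1% in Wild-type, with Ddit3 24.7% against 44.2%, and with Fkbp11 54.6% against 38.0%. The order of the libraries matched that of the levels for these 4 genes, but not for every member. Ero1l, lower in level in Tg7, was seen in 10.3% of Tg7 and 9.41% of Wild-type insulin cells, and Atf6, also lower, in 17.7% and 16.4%. Edem2, higher in level in Tg7, was seen in 29.7% of Tg7 and 30.1% of Wild-type insulin cells. The intervals of these shares overlapped between the libraries.

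Tg7 insulin cells also held less insulin message, a median of 29.1% of UMIs against 63.7% in Wild-type, so the members were read at like insulin share. Bands of 20 to 40% held 380 Tg7 and 21 Wild-type cells, and bands of 40 to 60% held 92 Tg7 and 143 Wild-type cells. The lowest band, 5 to 20%, held 122 Tg7 and 0 Wild-type cells, and the highest, above 60%, 1 Tg7 and 329 Wild-type cells. Within each library 14 members had a higher level in each successive band, namely Asns, Calr, Creld2, Derl2, Dnajb11, Dnajc3, Edem2, Fkbp11, Hsp90b1, Manf, Pdia3, Pdia6, Sdf2l1 and Xbp1. Canx and Edem1 had a lower level in each. The chaperone sum was 83.9, 96.9 and 124 in the 3 filled Tg7 bands, from low to high insulin share, and 110, 115 and 137 in the 3 filled Wild-type bands. In Tg7 alone 27 of the 41 members went up over every band and 3 went down, and in Wild-type alone 17 went up and 12 down. Of the 13 chaperones 10 went up and 1 down in Tg7, against 8 up and 2 down in Wild-type. Of the 6 genes of disulfide formation 3 went up and 0 down in Tg7, against 3 up and 2 down in Wild-type. The order over bands was not counted over all genes, so none of these counts sets the members apart from other genes. Fkbp11 had a steep course, at 3.39, 4.82 and 7.40 in Tg7 and at 0.838, 1.65 and 3.35 in Wild-type.

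Between cells of 40 to 60% insulin share the chaperone sum was no longer lower in Tg7. It was 124 in Tg7 and 115 in Wild-type, a ratio of 1.08 (1.06 to 1.10). Over all genes 3506 of 8331 had a ratio above 1, with a median log2 ratio of -0.13. Of the 41 members 16 were above 1 and 25 below, with a median of -0.19. Of the 13 chaperones 8 were above 1 and 5 below. The latter were Hspa5, Hyou1, Calr (0.786), Canx (0.739) and Dnajc10 (0.880, from 0.697 to 1.10). At 2-fold or more 2 of the 41 members were higher (4.54% of 8331 genes), Fkbp11 at a ratio of 4.49 (4.01 to 5.02) and Creld2 at 2.39. A further 3 members were lower (10.9% of genes), Ero1lb at 0.118 (0.105 to 0.133), Hyou1 at 0.423 and Ddit3 at 0.434. Sdf2l1 was at 1.21, Dnajc3 at 1.85, Pdia3 at 1.66 and Pdia6 at 1.64, while Hspa5 was at 0.839. Of the 14 members that went up with insulin share in both libraries 10 were above 1 here, and Asns, Calr, Derl2 and Xbp1 were below it. The sums of the other groups stayed lower in Tg7. Their ratios were 0.796 for disulfide formation, 0.814 for degradation, 0.812 for the sensors and 0.694 for the Atf4-Ddit3 branch, although Chac1 (1.03) and Asns (0.998) were near 1. The gap in the disulfide sum was set by Ero1lb. In that group 4 of 6 members were above 1, with a median log2 ratio of 0.30, and Ero1l (0.671) was the other member below it.

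In the band of 20 to 40%, with 21 Wild-type cells, 1 member was at least 2-fold higher (10.6% of 10059 genes), Fkbp11 at 5.75 (4.09 to 8.37), and 5 were lower (9.0%), Ero1lb at 0.0923, Ddit3 at 0.359, Sesn2 at 0.373, Hyou1 at 0.450 and Eif2ak3 at 0.488. Ero1lb, Hyou1, Ddit3 and Fkbp11 were past 2-fold in the same direction in both bands. Per cell, Spearman's rho between insulin share and the chaperone level was 0.34 over 595 Tg7 cells and 0.30 over 493 Wild-type cells. The same chaperone level had a rho of -0.44 with the mitochondrial share in Tg7 and -0.46 in Wild-type. These cells share a library and its depth, so the values are a description.

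**Figure D4:**
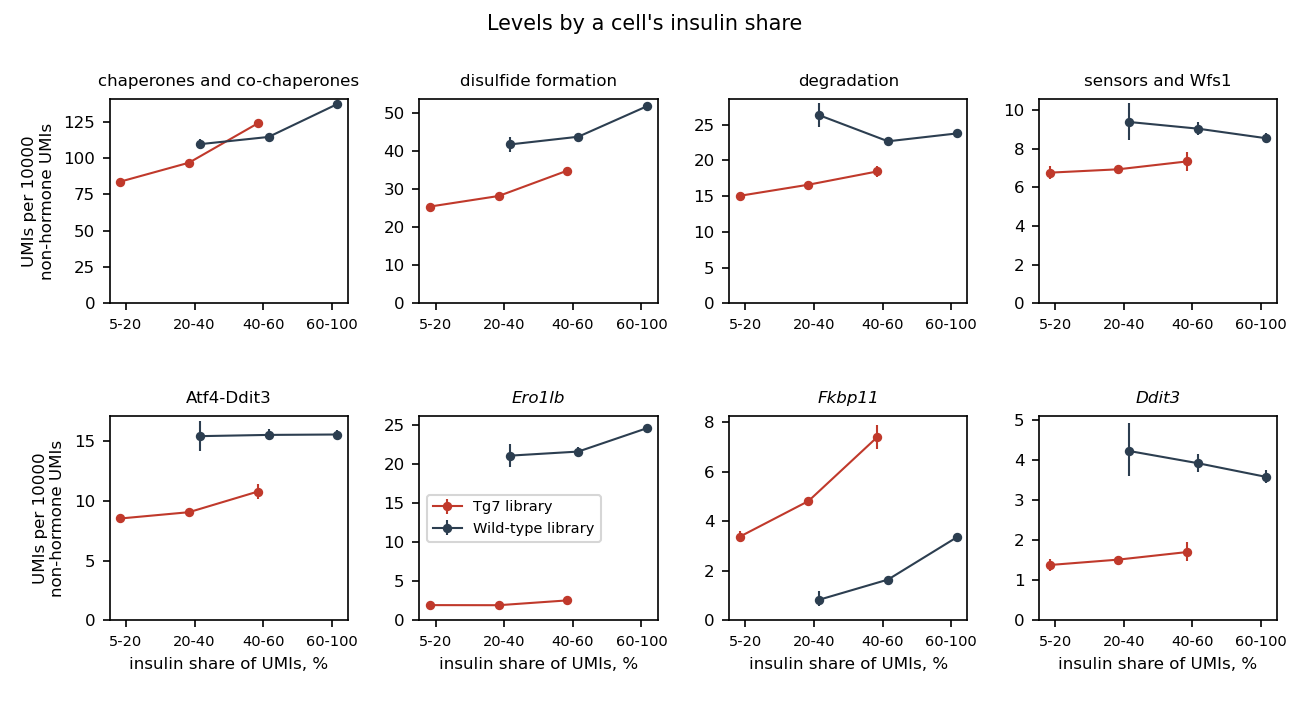
Summed level of each group, and levels of Ero1lb, Fkbp11 and Ddit3, by the insulin share of a cell's UMIs, in bands with at least 20 cells, with 95% counting intervals. The chaperone lines cross between 20 and 60%, with 124 in Tg7 and 115 in Wild-type at 40 to 60%, while Ero1lb stays at 2.56 in Tg7 against 21.6 in Wild-type.

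Ins1 is the insulin gene that was most reduced in Tg7, at 1.92% of insulin-cell UMIs against 18.9% in Wild-type. Tg7 insulin cells with Ins1 under 1% of UMIs (228 cells) had Ero1lb at 1.98, those with 1 to 5% (332 cells) at 1.99 and those with 5% or more (35 cells) at 2.87 (2.40 to 3.40). The 480 Wild-type cells with 5% or more had 23.8. The few Wild-type cells with little Ins1 were low in Ero1lb too, at 3.03 (1.85 to 4.69) in the 5 cells under 1% and at 7.75 (6.26 to 9.50) in the 8 cells of 1 to 5%. Over all Wild-type insulin cells Spearman's rho between Ins1 share and Ero1lb was 0.30, and over Tg7 insulin cells it was 0.06. Hspa5 was at 22.7, 23.5 and 26.5 over the same 3 Tg7 groups and at 33.7, 47.7 and 41.6 over the Wild-type groups. Low Ero1lb thus went with low Ins1 in these few Wild-type cells, while over Tg7 insulin cells rho was only 0.06. The part of Ins1 share in the Tg7 value was not tested beyond these groups.

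In Gcg cells, which are not the cells the transgene is aimed at, the members were close between the libraries. Derl3, Edem1, Edem3 and Trib3 had fewer than 50 UMIs. Of the other 37 members 25 had a ratio below 1 (67.6%, against 58.7% of 6668 genes). The median log2 ratio was -0.12, beside -0.08 over all genes. The intervals of 27 members held 1, a count not made over all genes. Intervals are wider here, as Tg7 Gcg cells summed to 1599182 non-hormone UMIs against 11706585 in Tg7 insulin cells. At 2-fold or more 0 members were higher (0.690% of genes) and 1 was lower (2.11%), Eif2ak3 with 41 UMIs in Tg7 and 77 in Wild-type, a ratio of 0.498 (0.332 to 0.736), which came to less than 2-fold under several alternatives (log2 -0.93 with TMM factors). The next lowest ratios were those of Sel1l, 0.609 on 45 UMIs in Tg7 and 69 in Wild-type, Ppp1r15a, 0.668 on 324 and 453, Chac1, 0.701 on 39 and 52, and Sesn2, 0.743 on 35 and 44. The highest were those of Fkbp11, 1.65 (1.14 to 2.41) on 83 and 47 UMIs, P4hb, 1.503 (1.28 to 1.77) on 386 and 240, Syvn1, 1.47 on 41 and 26, Derl2, 1.28 on 85 and 62, and Edem2, 1.26 on 123 and 91. Ero1lb counted 105 UMIs in Tg7 against 116 in Wild-type, a ratio of 0.846 (0.643 to 1.11), and Hspa5 3341 against 3221, a ratio of 0.969 (0.923 to 1.02). Calr, Canx, Pdia6, Sel1l, Eif2ak3 and Ppp1r15a had intervals below 1 in Gcg cells as in insulin cells, and Fkbp11 and P4hb had intervals above 1 in both. If all insulin message in Gcg cells came from insulin cells, RNA of those cells made up 0.971% of UMIs in Tg7 Gcg cells and 0.405% in Wild-type Gcg cells.

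Sst and Ppy cells were too few for most members. In 13 Tg7 and 19 Wild-type Sst cells 11 members had 50 UMIs, 0 were 2-fold higher (1.19% of 506 genes) or lower (2.37%), and 9 intervals held 1. The lowest ratios were Hspa5 at 0.673 (0.497 to 0.902), with 63 UMIs in Tg7 and 177 in Wild-type, followed by Ppp1r15a at 0.700, Xbp1 at 0.776, Canx at 0.798 and Pdia3 at 0.924. The highest were Calr at 1.65 (1.01 to 2.68), with 34 UMIs in Tg7 and 39 in Wild-type, Herpud1 at 1.21, Atf4 at 1.16, Dnajb9 at 1.08 and Manf at 1.06. In 19 Tg7 and 9 Wild-type Ppy cells 14 members were measured, 0 were 2-fold higher (0.535% of 748 genes) or lower (1.07%), and Pdia6, at 0.594 (0.389 to 0.908) with 48 UMIs in Tg7 and 47 in Wild-type, was the only one of these 14 whose interval left out 1. The next lowest were Pdia3 at 0.833, Canx at 0.919, P4hb at 0.940 and Dnajc3 at 0.970, and the highest Ppp1r15a at 1.22, Herpud1 at 1.18, Calr at 1.14, Xbp1 at 1.13 and Hsp90b1 at 1.06. Smaller differences were not detectable at this depth for most of these genes.

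Set against Gcg cells of the same library, insulin cells held more of most members. Derl3, Edem1, Edem3 and Trib3, with fewer than 50 UMIs in Gcg cells, were left out of the counts. At least 2-fold higher in insulin cells were 20 of the other 37 members in Tg7 (8.14% of 6668 genes) and 26 of 37 in Wild-type (9.58%), and 0 were 2-fold lower in Tg7 (4.72%) or in Wild-type (7.30%). The median ratio of insulin over Gcg cells over these members was 2.10 in Tg7 and 2.65 in Wild-type, beside 1.13 in Tg7 and 1.11 in Wild-type over the 6668 genes. Ero1lb was 3.08-fold higher in insulin cells in Tg7 (2.53 to 3.78) and 30.2-fold in Wild-type (25.2 to 36.6). Sdf2l1 was 4.28-fold higher in Tg7 and 8.68-fold in Wild-type, Ddit3 1.62-fold in Tg7 and 3.65-fold in Wild-type, and Hspa5 1.12-fold in Tg7 and 1.93-fold in Wild-type. Fkbp11 kept its excess, at 9.22-fold in Tg7 and 8.46-fold in Wild-type, as did Wfs1, at 5.98-fold and 6.73-fold. Derl3 had 402 UMIs in insulin cells and 2 in Gcg cells of Tg7, and 456 and 3 in Wild-type. Ppp1r15a was the one member below 1 in both libraries, at 0.785 in Tg7 and 0.891 in Wild-type.

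**Figure D5:**
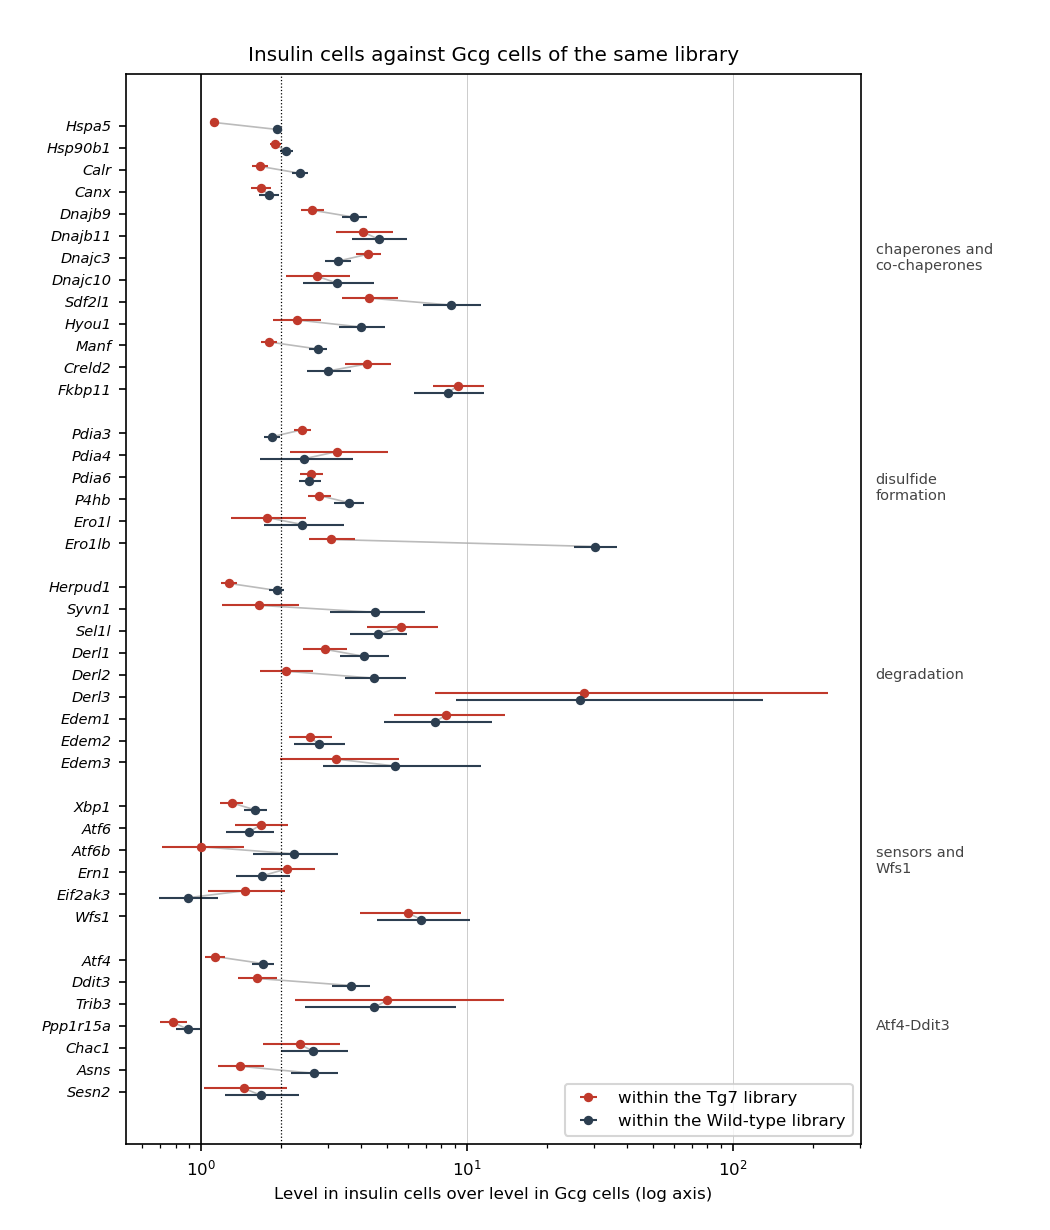
Level in insulin cells over level in Gcg cells of the same library, on a log axis, with 95% counting intervals; grey lines join the Tg7 and Wild-type values of a gene and the dotted line marks 2-fold. Ero1lb has the longest line, with 3.08 in Tg7 and 30.2 in Wild-type, while Fkbp11, Pdia6 and Edem2 sit at like values.

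Members with the ERSE or ERSE-II did not share one ratio in insulin cells. Over the 12 of them the ratio ran from 0.0863 in Ero1lb to 1.27 in Dnajc3, with a median log2 of -0.51. Over the 25 members whose windows held neither by exact letters it ran from 0.404 to 1.80, with a median log2 of -0.38. The element stands in the windows of Ero1lb and of Pdia6, Canx and Dnajc3 alike. The ranges of both sets overlapped over most of their length.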

How the data were processed

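Single-cell libraries of 1 Tg7 and 1 Wild-type group were analysed. The authors deposited raw UMI counts per gene and barcode, made, per the submitters' processing notes, with bcl2fastq 2.17.1.14, Cell Ranger 3.0.2 and STAR on mm10; the sources used here do not give the annotation version. Barcodes under 1000 UMIs or over 20% mitochondrial UMIs were dropped (117 in Tg7, 100 in Wild-type). Scrublet, as run by scanpy 1.11.5 at an assumed 0.8% per 1000 barcodes in place of the study's caller, marked 14 Tg7 and 11 Wild-type barcodes as doublets, which were removed. Alternatives changed the scaling, the filters, the class limits, the minimum and the fold, one at a time. Cells were classed by leading hormone as described; 78 Tg7 and 19 Wild-type cells lay within 2 to 4 times the next hormone and 64 and 17 within 4 to 8 times. Median UMIs per insulin cell were 29701 in Tg7 and 49490 in Wild-type. UMIs were summed per class and library, and ratios carry conditional exact binomial intervals, levels exact Poisson intervals and shares exact Clopper-Pearson intervals. No p-value was computed. A gene was read as measured from 50 UMIs over both libraries and as past the fold from 2-fold. For insulin over Gcg cells the minimum was set on Gcg cells alone, a choice made after the data were seen. The function for ratios and their intervals was tested on simulated Poisson counts, and the other steps were not tested in this way. TMM factors came from edgeR 4.0.16 in R 4.3.3.

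The 41 members, the role groups, the other gene lists and the bands were chosen with earlier results of these data known. All members were named; Gcg cells were described by up to 5 highest and 5 lowest ratios, and other lists by up to 3 in each direction past 2-fold with at least 100 UMIs. Clgn and Creb3l3, under 100 UMIs, were named after their values were seen. Sequence features of the proteins were not analysed here.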

Additional observations from a re-analysis of the deposited data

Results flagged for a closer look

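Manf and Pdia3 had intervals on opposite sides of 1 in insulin cells and Gcg cells. The ratio of Tg7 over Wild-type for Manf was 0.742 in insulin cells and 1.13 in Gcg cells. For Pdia3 it was 1.14 in insulin cells and 0.874 in Gcg cells. The difference between the cell classes was not tested, and it depends on the scale for Manf, whose insulin-cell ratio is 1.28 scaled to all UMIs, where that of Pdia3 is 1.96. For Pdia3 it depends on the Gcg class, since its log2 ratio in Gcg cells was 0.01 with no limit on the next hormone, against -0.19 as given.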

How the results depend on the processing

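No paired analysis was possible because each group is 1 library. Scaling decided the direction of the insulin-cell medians: scaled to all UMIs the median log2 ratio was 0.44 for chaperones, 0.74 for disulfide formation, 0.37 for degradation, 0.45 for the sensors and 0.02 for the Atf4-Ddit3 branch, with 4 members at least 2-fold higher (29.1% of all genes) and 1 lower (1.51%), and 24 of 41 members changed sign. Under the 10 other alternatives for insulin-cell ratios 40 of 41 members kept their sign, and Edem1 ran from -0.07 to 0.03. Sdf2l1 came to -0.99 with a leading hormone 10 times the next, which left 3 members lower, and with equal weight per cell Hyou1 came to -1.02, past 2-fold, while the number of members lower was 4. In Gcg cells 12 of 37 members changed sign with no limit on the next hormone. In Gcg cells 0 members were at least 2-fold lower with TMM factors, without ribosomal and mitochondrial UMIs, with equal weight per cell, and with a leading hormone 2 or 10 times the next or with no limit on it, and with no limit 1 was higher. A fold of 1.5 gave 1 higher (13.9% of 11420 genes with a UMI in both libraries) and 16 lower (13.2%) in insulin cells, and 2 higher (3.84% of 6668) and 2 lower (10.5%) in Gcg cells. With insulin cells split into 3 equal groups by insulin share in place of bands, degradation in Wild-type insulin cells had a log2 of highest over lowest group of 0.09, against -0.15 by bands; the cause was not tested. One library per group leaves mice, runs and groups that cannot be told apart, and intervals cover counting error only.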

Other observations

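The 78 Tg7 cells led by insulin but with another hormone above the limit were left out of the comparisons. Relative to Tg7 insulin cells their chaperones summed to a ratio of 0.794, disulfide formation to 0.817 and degradation to 0.833, while the sensors were at 0.990 and the Atf4-Ddit3 branch at 1.03 (0.983 to 1.09). Fkbp11 was at 0.564 (0.513 to 0.618) and Ero1lb at 0.727 (0.639 to 0.824) of the insulin-cell level, and Ppp1r15a at 1.23 (1.10 to 1.38).

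In Gcg cells the other genes of the pathway were close between the libraries. Of 29 other ER folding genes 0 passed 2-fold and the median log2 ratio was 0.13, and of 24 other degradation genes 0 passed and the median was 0.01. Of 16 other transducers 0 passed, with a median of -0.11, and of 12 cytosolic heat shock genes Hspa1b alone was at least 2-fold lower, with a median of -0.28.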
